A study of Mus musculus with 8 samples.

Results

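The adipocyte genes described here are 10 genes taken by name from a count table of 19201 genes: the transcription factor gene *Pparg*, the lipid droplet protein genes *Plin1*, *Plin4* and *Cidec*, the fatty acid handling genes *Fabp4* and *Lpl*, and the adipokine genes *Adipoq*, *Lep*, *Cfd* and *Retn*. All 10 were present in the table and 8 had enough reads to be tested, since *Lep* and *Retn* did not reach 10 counts in enough libraries. RNA-Seq had been performed on cortical bone of 4 *Prx1Cre; Piezo1fl/fl* samples (*Piezo1*-deficient below) and 4 WT samples, numbered replicates 1, 3, 4 and 5 in each genotype, all on the C57BL/6J background and taken at 6 weeks of age. In the *Piezo1*-deficient mice, Cre driven by the *Prx1* promoter removes a loxP-flanked part of *Piezo1* in limb mesenchyme, the tissue from which osteoblasts, chondrocytes, marrow stromal cells and marrow adipocytes of the limb arise, and not in muscle fibres or blood cells. Whether the WT mice carried Cre or the floxed allele, the sex of the mice and whether each sample was a separate animal are not stated in the labels, and p-values therefore cover the variation among these 8 samples, which may be technical. The bone was ground whole in liquid nitrogen, so its RNA also holds transcripts of marrow, vessels and attached tissue.

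White adipocytes store triglyceride in a large lipid droplet coated by perilipins and enlarged by CIDEC. Their differentiation is driven by the nuclear receptor PPARγ, fatty acids are released from circulating lipoproteins by LPL and carried inside the cell by FABP4, and the cells secrete adiponectin, leptin, adipsin (*Cfd*) and, in mice, resistin. Several of these genes are also used by other cells of a bone sample: *Adipoq* and *Lpl* by marrow stromal cells, *Fabp4* by capillary endothelium, and *Plin4* and *Lpl* by skeletal muscle.

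The libraries held 11963536 to 14536106 counts. *Piezo1*, the deleted gene, had 1726, 1898, 1788 and 1561 counts in *Piezo1*-deficient replicates 1, 3, 4 and 5, against 2476, 2926, 3071 and 2735 counts in WT replicates 1, 3, 4 and 5. In CPM, which are counts per 1000000 of the normalised library size, it averaged 138 ± 6.37 in *Piezo1*-deficient samples and 205 ± 9.94 in WT samples (SD, n = 4 each), that is 67.4% of WT, and it fell by 0.57 on the log2 scale (SE 0.064, edgeR adjusted p = 0.0027). In RefSeq *Piezo1* overlaps *Ctu2*, whose reads could not be told apart from its own where they share bases. The tissue label was checked against osteoblast and osteocyte genes, of which 9 of 9 were above 0 in every library, with summed levels of 123155 to 174141 CPM in *Piezo1*-deficient samples and 96588 to 118811 CPM in WT samples. These sums did not overlap, and most of each was *Col1a1*, which was not called (log2 fold change 0.45, edgeR adjusted p = 0.134). Of the 9 genes, 1 was called: *Bglap* rose (log2 fold change 0.58, edgeR adjusted p = 0.0246). Marker transcripts of other tissues differed between the genotypes: 12 of 12 skeletal muscle genes rose and 6 of 6 chondrocyte genes fell, and of 6 tendon and periosteum genes tested 2 rose and 1 fell. Summed levels were lower, without overlap, for the B lineage (111 to 276 CPM in *Piezo1*-deficient samples, against 319 to 404 CPM in WT samples), osteoclasts (4878 to 7171 CPM, against 8132 to 9289 CPM in WT samples) and macrophages (635 to 782 CPM, against 807 to 938 CPM in WT samples). By edgeR, 0 of 5 B lineage, 2 of 5 osteoclast and 2 of 8 macrophage genes fell. In the same order, DESeq2 called 4, 3 and 2 genes, and 5, 4 and 2 had an unadjusted edgeR p under 0.05. The 2 macrophage genes that fell by edgeR were *Csf1r* and *Cd68* (log2 fold change −0.45 and −0.42). The other macrophage genes were not called, with log2 fold changes of −0.11 to 0.30. *Piezo1*-deficient replicate 1 stood apart from the other *Piezo1*-deficient libraries on the second principal component (39.6 against −18.8 to −13.6) and had the lowest neutrophil, B lineage and erythroid sums of the 8 libraries. On that component WT replicate 1 was also the highest of its genotype (17.8 against −9.85 to 6.33).

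Of the 8 adipocyte genes tested, 1 rose in *Piezo1*-deficient bone, *Plin4*, with a mean level 4.38-fold that of WT bone, and 0 fell, also at an unadjusted p under 0.05 and by the Wald test of DESeq2. *Fabp4* just missed the threshold of an adjusted p under 0.05. *Plin1*, *Cidec*, *Cfd* and *Retn* were high in *Piezo1*-deficient replicates 4 and 5, while replicates 1 and 3 of that genotype lay near or below the WT samples. *Lep* reads came mostly from *Piezo1*-deficient replicate 4, and none of these 5 genes passed the main test of edgeR, with or without a filter on low counts. *Cidec* was called in the alternative fit with a replicate block (adjusted p = 0.0316) and by the Wald test of DESeq2 (adjusted p = 0.0322). *Adipoq*, *Lpl* and *Pparg* had overlapping levels in both genotypes. Over all 15318 genes tested by the quasi-likelihood test of edgeR, 2.04% rose and 0.973% fell, 3.02% in either direction.

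**Figure D1:**
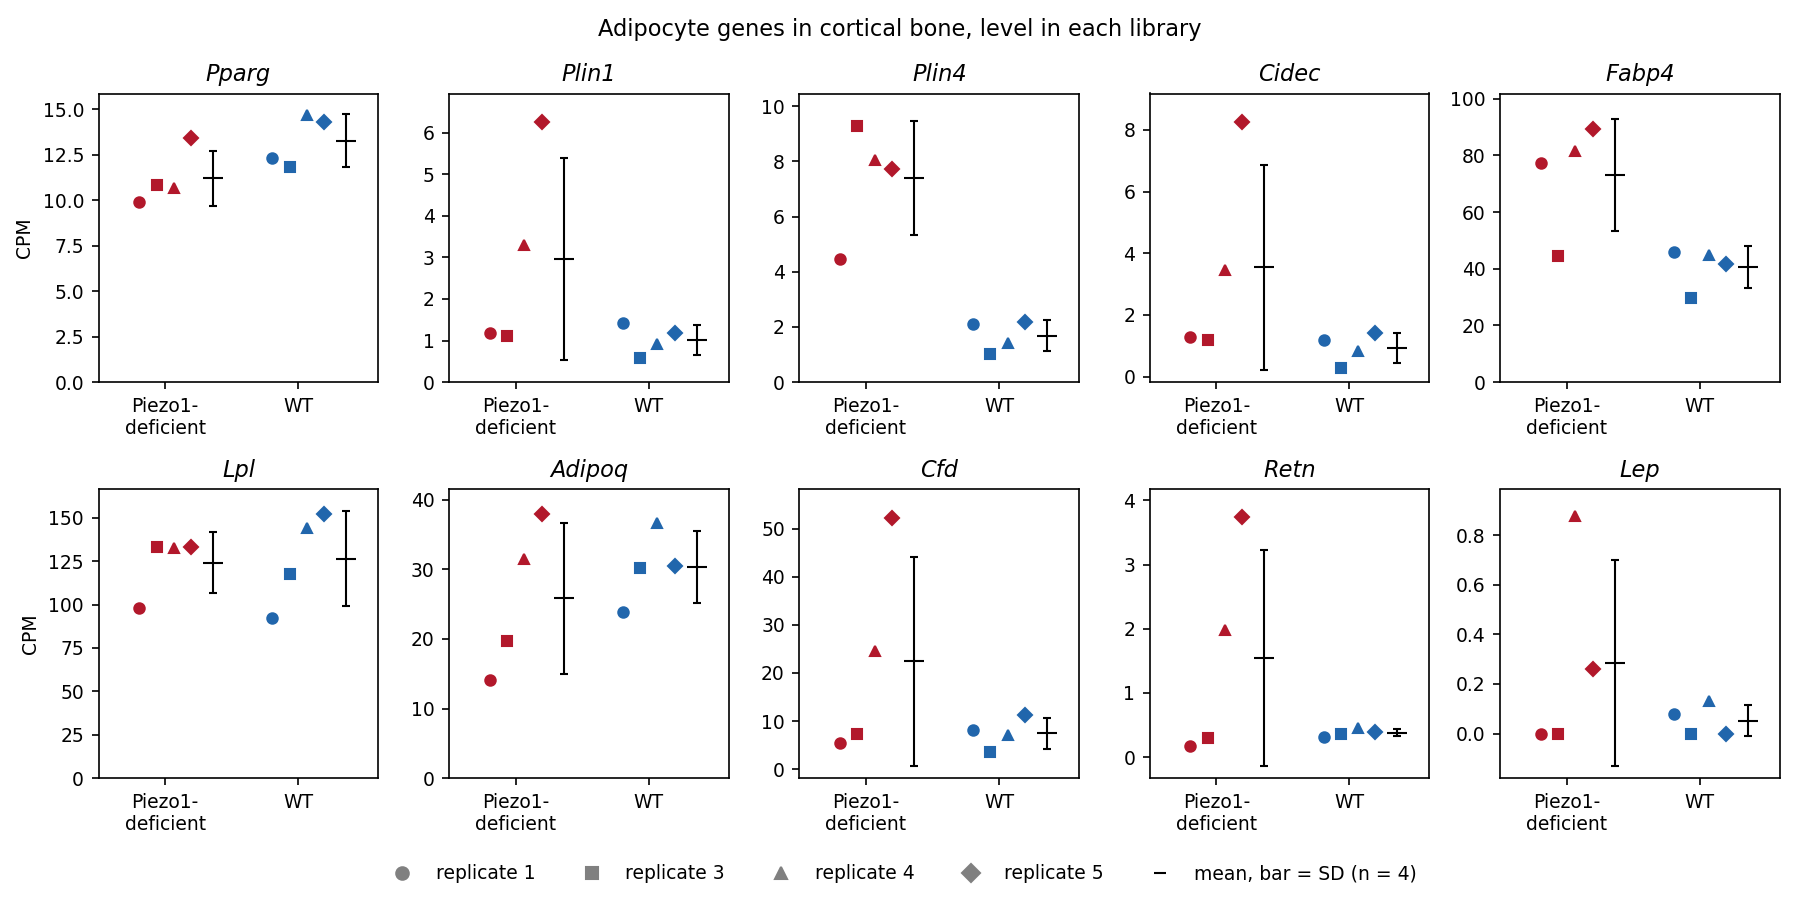
Level of each of the 10 adipocyte genes in CPM (y axis, linear, separate scale per gene) in the 4 *Piezo1*-deficient samples (red, left) and the 4 WT samples (blue, right), with the replicate number as the symbol and the mean and SD (n = 4) in black. The genotypes are separate for *Plin4*, while for *Plin1*, *Cidec*, *Cfd* and *Retn* only *Piezo1*-deficient replicates 4 and 5 lie above the WT samples.

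The order of the genes by level was set by dividing CPM by the exon length of each gene in kilobases. *Fabp4* led, with 115 CPM per kb (69.7 to 140 over the libraries) in *Piezo1*-deficient samples and 63.7 CPM per kb (46.8 to 72.2) in WT samples. In WT bone *Adipoq* and *Lpl* came next, with 21.9 and 18.6 CPM per kb and overlapping ranges, then *Cfd* and *Pparg*, with 8.07 and 6.69 CPM per kb and overlapping ranges. The droplet genes were far lower there: *Plin1*, *Cidec* and *Plin4* had 0.531, 0.500 and 0.293 CPM per kb, and their ranges overlapped. *Retn* followed with 0.241 CPM per kb, inside the range of *Plin4*, and *Lep* came last with 0.0155 CPM per kb. In *Piezo1*-deficient bone the mean of *Cfd* (24.3 CPM per kb) stood above those of *Adipoq* (18.7) and *Lpl* (18.2), but its range over the 4 libraries, 5.86 to 56.6 CPM per kb, covered both of theirs. Transcripts of the droplet genes and of *Adipoq* and *Cfd* were present in every library of both genotypes. *Retn* had only 4 to 7 counts and *Lep* 0 to 2 counts in the WT libraries. As several of the 10 genes are also used by other cells, the cells that made these transcripts are not known. More cells of a type cannot be told apart from more RNA per cell in such bulk samples.

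*Pparg* (chr6:115360879-115490404, plus strand, GRCm38), the gene of the nuclear receptor that drives adipocyte differentiation, had 9.89, 10.8, 10.7 and 13.4 CPM in *Piezo1*-deficient replicates 1, 3, 4 and 5, against 12.3, 11.8, 14.7 and 14.3 CPM in WT replicates 1, 3, 4 and 5. The groups overlapped, through *Piezo1*-deficient replicate 5. The log2 fold change was −0.25 (SE 0.12, 95% interval −0.52 to 0.03), with an edgeR adjusted p of 0.320 and an exact permutation p of 0.114.

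*Plin4* (chr17:56100587-56109948, minus strand), which encodes a perilipin that coats small lipid droplets, was counted 53, 126, 110 and 89 times in *Piezo1*-deficient replicates 1, 3, 4 and 5, against 27, 14, 22 and 28 times in the WT replicates. Scaled to library size these were 4.48, 9.30, 8.06 and 7.74 CPM in *Piezo1*-deficient samples and 2.12, 1.02, 1.42 and 2.19 CPM in WT samples. Every *Piezo1*-deficient library lay above every WT library, an arrangement found for 6.65% of all genes tested. The means were 7.39 ± 2.05 CPM in *Piezo1*-deficient samples and 1.69 ± 0.562 CPM in WT samples (SD, n = 4 each), a log2 fold change of 2.14 (SE 0.28, 95% interval of the fold 2.86 to 6.80, edgeR adjusted p = 0.0049). The two-sided exact permutation p was 0.0286, the smallest that 70 arrangements of 4 against 4 can give.

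The call of *Plin4* was lost in 1 of the alternative fits that tested it. Without both *Piezo1*-deficient replicates 3 and 4, which had the highest summed skeletal muscle level, its log2 fold change was 1.86 and the edgeR adjusted p 0.0563. That fit, added after seeing the data, has fewer libraries. Over all genes it took the rises from 313 to 63 and the falls from 149 to 46, so calls of other genes were lost there too. How many of those were muscle genes was not tested. The fit cannot decide the part of muscle, since both remaining *Piezo1*-deficient libraries still held more muscle transcripts than any WT library. Their muscle sums were 496 and 503 CPM, against 11.4 to 171 CPM in WT samples. Leaving out 1 library at a time gave log2 fold changes of 1.96 to 2.32 and adjusted p-values up to 0.0243. In RefSeq, *Plin4* shares 19 of its 9362 bases with the gene *Hdgfl2* on the opposite strand, listed as *Hdgfrp2* in the table. *Hdgfrp2* had a log2 fold change of −0.02 and was not called (adjusted p = 0.916).

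The promoters of the droplet genes and of *Adipoq* are shown because *Plin4* was highest in *Piezo1*-deficient replicate 3 and *Plin1* and *Cidec* in replicate 5, while *Adipoq*, also highest in replicate 5, had overlapping levels in both genotypes. Each is 300 bases from RefSeq on GRCm38.p6, from 250 bases before the start of transcription to 50 after it, read 5′ to 3′ on the strand of the gene. Capitals mark AGGTCA, the core of nuclear receptor sites, and TTNNGCAA, a loose C/EBP site, both searched on both strands, and TATAAN, the TATA box, on the strand of the gene. They stand at chr17:56109733-56110032 (*Plin4*, minus strand), chr7:79732727-79733026 (*Plin1*, minus strand), chr6:113434715-113435014 (*Cidec*, minus strand, the inner of the 2 starts in the table) and chr16:23146286-23146585 (*Adipoq*, plus strand). The starts used for *Plin4* and *Plin1* also lie inside the gene spans given in this report, not at their 5′ ends.
Plin4: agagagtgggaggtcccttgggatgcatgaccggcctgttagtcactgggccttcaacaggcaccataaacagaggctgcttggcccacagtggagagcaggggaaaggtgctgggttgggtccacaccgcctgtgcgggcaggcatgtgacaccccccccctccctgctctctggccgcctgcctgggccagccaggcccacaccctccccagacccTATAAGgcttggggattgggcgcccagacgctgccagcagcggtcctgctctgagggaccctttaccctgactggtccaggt
Plin1: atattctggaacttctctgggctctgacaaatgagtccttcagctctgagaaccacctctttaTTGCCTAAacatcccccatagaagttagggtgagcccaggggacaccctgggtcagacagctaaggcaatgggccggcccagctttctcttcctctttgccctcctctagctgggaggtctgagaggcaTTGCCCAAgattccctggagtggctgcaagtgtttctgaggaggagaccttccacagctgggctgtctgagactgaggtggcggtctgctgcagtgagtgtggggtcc
Cidec: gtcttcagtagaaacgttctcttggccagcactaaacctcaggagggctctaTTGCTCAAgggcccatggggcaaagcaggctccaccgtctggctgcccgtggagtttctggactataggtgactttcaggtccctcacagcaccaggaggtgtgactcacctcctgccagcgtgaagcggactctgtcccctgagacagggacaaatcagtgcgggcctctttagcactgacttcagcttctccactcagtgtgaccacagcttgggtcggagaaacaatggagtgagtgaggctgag
Adipoq: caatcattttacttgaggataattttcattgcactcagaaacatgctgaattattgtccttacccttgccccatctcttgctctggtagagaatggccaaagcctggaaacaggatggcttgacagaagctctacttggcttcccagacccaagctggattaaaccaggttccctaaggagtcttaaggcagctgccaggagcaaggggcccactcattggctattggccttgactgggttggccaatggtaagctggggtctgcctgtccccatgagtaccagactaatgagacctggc

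A TATAAN match lay 32 bases before the start used for *Plin4*, the usual place of a TATA box, and 17.5% of the 32851 mouse promoters of this length held that motif on the strand of the gene. Matches to TTNNGCAA, found in 10.8% of the promoters, lay 187 and 58 bases before the start used for *Plin1* and 198 bases before the inner start of *Cidec*. The promoter of the outer start of *Cidec* held none of the 3 motifs. The *Adipoq* promoter held none of the 3 motifs. Among the 11 promoters listed for 8 of the 10 genes (*Fabp4* and *Lpl* are named only), TTNNGCAA was in 4 and AGGTCA in 2, both of *Pparg*, against 16.3% of all promoters for AGGTCA. The direct repeat to which PPARγ binds with its partner RXR, AGGTCANAGGTCA, was in 0 of the 11 and in 0.0396% of all promoters. These are matches of letters and were not tested as sites.

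*Plin1* (chr7:79721164-79732904, minus strand) encodes the perilipin of the large adipocyte droplet. It had 1.18, 1.11, 3.30 and 6.26 CPM in *Piezo1*-deficient replicates 1, 3, 4 and 5, from 14, 15, 45 and 72 counts, against 1.41, 0.583, 0.907 and 1.17 CPM in the WT replicates, from 18, 8, 14 and 15 counts. Replicates 4 and 5 of the *Piezo1*-deficient genotype lay above all WT samples, and replicates 1 and 3 lay inside the WT range. The log2 fold change was 1.53 (SE 0.55, 95% interval 0.31 to 2.75), with an edgeR adjusted p of 0.166 and an exact permutation p of 0.171. Without *Piezo1*-deficient replicate 5 it was 0.88.

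*Cidec* (chr6:113424634-113435760, minus strand), whose product fuses lipid droplets, had the same layout. Its levels were 1.27, 1.18, 3.44 and 8.26 CPM in *Piezo1*-deficient replicates 1, 3, 4 and 5, against 1.18, 0.291, 0.842 and 1.41 CPM in the WT replicates. The highest *Piezo1*-deficient library had 95 counts and the lowest WT library 4. The groups overlapped through *Piezo1*-deficient replicates 1 and 3. The log2 fold change was 1.92 (SE 0.65, 95% interval 0.48 to 3.36), with an edgeR adjusted p of 0.144 and an exact permutation p of 0.114, and it was 1.09 without *Piezo1*-deficient replicate 5. The Wald test of DESeq2 called it (adjusted p = 0.0322), as did the fit with a replicate block (log2 fold change 1.79, adjusted p = 0.0316). *Cidec* overlaps the lncRNA gene *Gm52871* in RefSeq, and since the strand setting of the counting is not stated, reads of the overlap could not be told apart.

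The droplet genes therefore did not share 1 pattern. There were 3.79, 8.40, 2.44 and 1.24 *Plin4* counts per *Plin1* count in *Piezo1*-deficient replicates 1, 3, 4 and 5, against 1.50, 1.75, 1.57 and 1.87 in the WT replicates. The WT ratios lay close together, and the *Piezo1*-deficient ratios lay on both sides of them, highest in replicate 3, where *Plin1* and *Cidec* were inside the WT range, and lowest in replicate 5, where these 2 genes peaked.

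**Figure D2:**
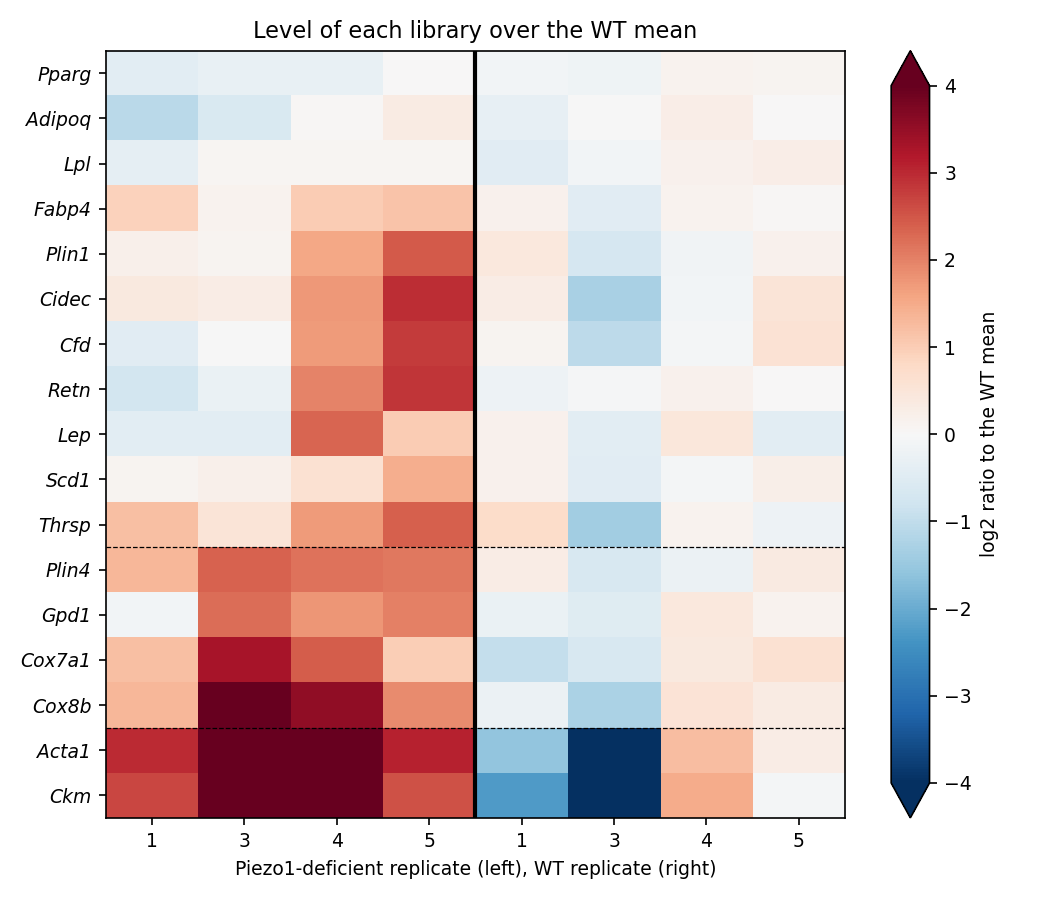
Level of each gene (rows) in each library (columns, *Piezo1*-deficient replicates left of the line, WT replicates right of it) as the log2 ratio to the mean of the WT samples, with a pseudocount of 0.152 CPM and colours that stop at 4 in either direction. *Plin1*, *Cidec*, *Cfd* and *Retn* are darkest in *Piezo1*-deficient replicate 5, whereas *Plin4*, *Gpd1*, *Cox7a1* and *Cox8b* are darkest in replicate 3, where, as in replicate 4, the muscle genes *Acta1* and *Ckm* reach the end of the scale.

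*Fabp4* (chr3:10204342-10208616, minus strand), the gene of the adipocyte fatty acid carrier, had the highest level of the 10 per length. It had 77.2, 44.4, 81.5 and 89.3 CPM in *Piezo1*-deficient replicates 1, 3, 4 and 5, against 46.0, 29.8, 44.7 and 41.8 CPM in the WT replicates. Replicates 1, 4 and 5 of the *Piezo1*-deficient genotype were above all WT samples, and replicate 3 was below WT replicates 1 and 4. The means were 73.1 ± 19.8 CPM in *Piezo1*-deficient samples and 40.6 ± 7.40 CPM in WT samples (SD, n = 4 each), a log2 fold change of 0.85 (SE 0.20, 95% interval 0.40 to 1.29, edgeR adjusted p = 0.0516, exact permutation p = 0.0857). The call turned on the setting: the adjusted p was 0.0096 without *Piezo1*-deficient replicate 3, 0.0499 without *Piezo1*-deficient replicate 1 and 0.0018 with the Wald test of DESeq2, in a range of 0.0018 to 0.142 over the alternatives. *Fabp4* is also a capillary gene. Of the endothelial markers, 0 of 7 tested were called by edgeR, 0 by DESeq2 and 0 at an unadjusted p under 0.05, and their sum was 554 to 671 CPM in *Piezo1*-deficient samples and 600 to 638 CPM in WT samples. Other genes that vessels express, chosen after their values were seen, did lie above all WT samples in every *Piezo1*-deficient library: *Cav1* and *Cd36*, which rose, and *Gpihbp1* and *Cdh13*, which were not called (adjusted p = 0.109 and 0.216). This arrangement was found for 6.65% of all genes tested. Of the 5 genes of fatty acid uptake, which include *Cd36* and *Gpihbp1*, 2 had a positive log2 fold change. *Fabp5* of that list had −0.22 and was not called (edgeR adjusted p = 0.162). The part of vessel content in the *Fabp4* level was not tested.

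*Lpl* (chr8:68880555-68906932, plus strand), which encodes the lipase that frees fatty acids from lipoproteins, had 97.9, 133, 133 and 133 CPM in *Piezo1*-deficient replicates 1, 3, 4 and 5, against 92.2, 117, 144 and 152 CPM in the WT replicates. The ranges overlapped, with replicate 1 the lowest of each genotype. The log2 fold change was −0.03 (SE 0.15, 95% interval −0.37 to 0.32), with an edgeR adjusted p of 0.948. *Fabp4* counts per *Lpl* count were 0.788, 0.334, 0.615 and 0.671 in *Piezo1*-deficient replicates 1, 3, 4 and 5, against 0.499, 0.254, 0.310 and 0.274 in the WT replicates, so the lowest *Piezo1*-deficient ratio lay inside the WT range and the other 3 above it.

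*Adipoq* (chr16:23146536-23157968, plus strand), the gene of adiponectin, was counted 167, 267, 430 and 436 times in *Piezo1*-deficient replicates 1, 3, 4 and 5, against 305, 414, 565 and 390 times in the WT replicates. This gave 14.1, 19.7, 31.5 and 37.9 CPM in *Piezo1*-deficient samples and 23.9, 30.1, 36.6 and 30.5 CPM in WT samples. The *Piezo1*-deficient libraries held both the lowest and the highest of the 8 values. The log2 fold change was −0.23 (SE 0.26, 95% interval −0.80 to 0.34), with an edgeR adjusted p of 0.685 and an exact permutation p of 0.486. Among the 4 *Piezo1*-deficient libraries *Adipoq* ranked them as *Cfd* and *Retn* did, with replicate 1 lowest and replicate 5 highest. The summed marrow stroma level was 847, 1011, 997 and 954 CPM in *Piezo1*-deficient replicates 1, 3, 4 and 5, against 914 to 1275 CPM in WT samples. Most of this sum was *Cxcl12*, which was lowest in replicate 1 among the *Piezo1*-deficient libraries (588 CPM, against 758 to 786 CPM). *Foxc1*, *Ebf3* and *Vcam1* were instead highest in replicate 1 (25.8, 38.6 and 146 CPM), and *Kitl* and *Il7* were neither lowest nor highest there. The sum therefore does not speak for the whole stroma list. The summed neutrophil level was 2518, 4909, 5276 and 6772 CPM in these 4 libraries, against 4503 to 6711 CPM in WT samples. The part of marrow content in the *Adipoq* level was not tested.

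*Cfd* (chr10:79890853-79892655, plus strand), the gene of the complement protease adipsin, had 5.41, 7.31, 24.6 and 52.3 CPM in *Piezo1*-deficient replicates 1, 3, 4 and 5, against 8.07, 3.50, 6.99 and 11.2 CPM in the WT replicates. Only *Piezo1*-deficient replicates 4 and 5 lay above the WT samples, with 336 and 601 counts. The log2 fold change was 1.59 (SE 0.63, 95% interval 0.19 to 2.99), with an edgeR adjusted p of 0.211 and an exact permutation p of 0.286, and it was 0.75 without *Piezo1*-deficient replicate 5.

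*Retn* (chr8:3655770-3659818, plus strand), which encodes resistin, and *Lep* (chr6:29060221-29073876, plus strand), which encodes leptin, were too low to be tested with the filter. *Retn* had 2, 4, 27 and 43 counts in *Piezo1*-deficient replicates 1, 3, 4 and 5, against 4, 5, 7 and 5 counts in the WT replicates. *Lep* had 0, 0, 12 and 3 counts in *Piezo1*-deficient replicates 1, 3, 4 and 5, against 1, 0, 2 and 0 counts in the WT replicates. Scaled to library size, *Retn* was above all WT samples in *Piezo1*-deficient replicates 4 and 5 and below them in replicates 1 and 3. *Lep* reads came mostly from *Piezo1*-deficient replicate 4, and a count of 0 allows up to 3 counts, that is 0.218 to 0.254 CPM in the 4 libraries at 0, for counting error only. With no filter on low counts neither gene was called by edgeR, with a log2 fold change of 1.97 for *Retn* (adjusted p = 0.234) and 2.24 for *Lep* (adjusted p = 0.407).

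**Figure D3:**
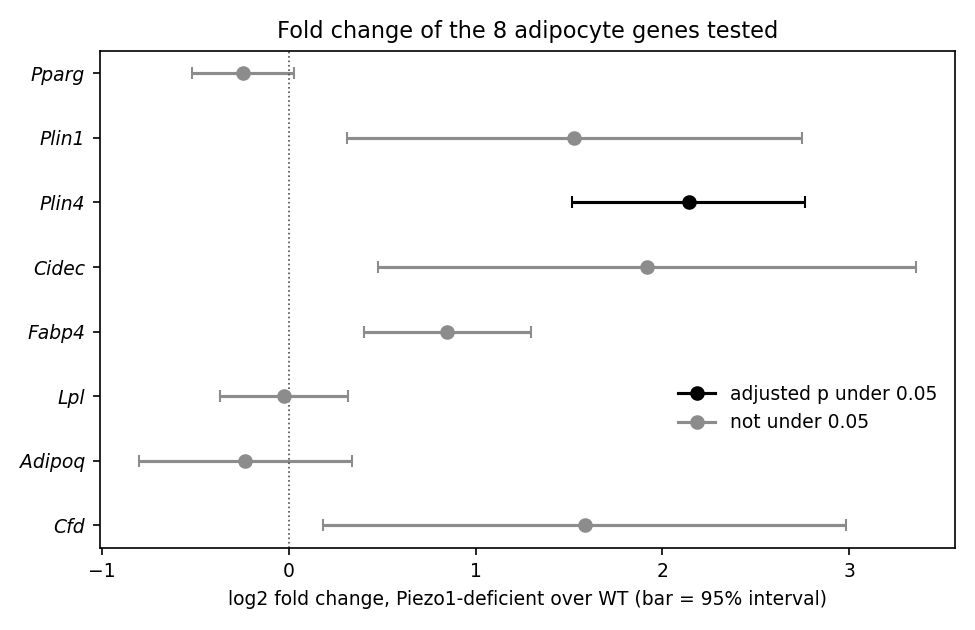
Log2 fold change of *Piezo1*-deficient over WT samples (x axis) for the 8 adipocyte genes tested by edgeR (rows), with bars for the 95% interval, black where the adjusted p was under 0.05. *Plin4* is the only gene in black, the intervals of *Cidec*, *Cfd* and *Plin1* are the widest, and those of *Pparg*, *Lpl* and *Adipoq* include 0.

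As a group, the 8 tested genes had a median log2 fold change of 1.19, and 5 of 8 were positive, against a median of 0.00 and 51.1% positive over all genes tested. A log2 fold change above 1 was found for 4 of the 8, against 1.51% of all genes tested, and only *Plin4* of these 4 was called. The others, *Plin1*, *Cidec* and *Cfd*, moved together over the libraries, with Pearson's r of 0.97 in each pair. They lay above all WT samples only in *Piezo1*-deficient replicates 4 and 5. Without replicate 5 their log2 fold changes were 0.88, 1.09 and 0.75. The count of 4 and the median of 1.19 therefore do not stand for separate rises of independent genes. An unadjusted edgeR p under 0.05 was found for 5 of the 8 and for 2822 of all 15318 genes. Relative to *Adipoq*, the droplet and adipsin transcripts were uneven over the libraries. There were 0.383, 0.371, 0.781 and 1.38 *Cfd* counts per *Adipoq* count in *Piezo1*-deficient replicates 1, 3, 4 and 5, against 0.338, 0.116, 0.191 and 0.369 in the WT replicates. For *Cidec* the same ratio was 0.0898, 0.0599, 0.109 and 0.218 in the *Piezo1*-deficient replicates, against 0.0492, 0.00966, 0.0230 and 0.0462 in the WT replicates. Both ratios were above all WT samples in every *Piezo1*-deficient library, for *Cfd* by a small margin in replicates 1 and 3. In these 2 libraries *Cidec* and *Cfd* themselves lay inside the WT range and *Adipoq*, the denominator, below it.

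Skeletal muscle transcripts moved with the genotype in the same comparison. All 12 skeletal muscle genes rose, and their summed level was 496, 4770, 1985 and 503 CPM in *Piezo1*-deficient replicates 1, 3, 4 and 5, against 24.2, 11.4, 171 and 92.3 CPM in the WT replicates. Of the defining genes, *Myh1*, *Myh2* and *Myh4* were at 0 in 1 WT library, replicate 3. *Acta1*, the skeletal muscle actin gene, had 89.4, 791, 388 and 93.5 CPM in *Piezo1*-deficient samples and 3.61, 0.510, 26.5 and 13.6 CPM in WT samples, and *Ckm*, muscle creatine kinase, had 46.2, 526, 195 and 42.3 CPM in *Piezo1*-deficient samples and 1.33, 0.218, 19.9 and 6.72 CPM in WT samples. *Plin4* was highest in the same library as the muscle sum, replicate 3, but was 7.74 CPM in *Piezo1*-deficient replicate 5 and 4.48 CPM in replicate 1 at muscle sums of 503 and 496 CPM. *Cidec* and *Plin1* were at WT levels in the library with the highest muscle sum. The part of attached muscle in the *Plin4* result was not tested.

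**Figure D4:**
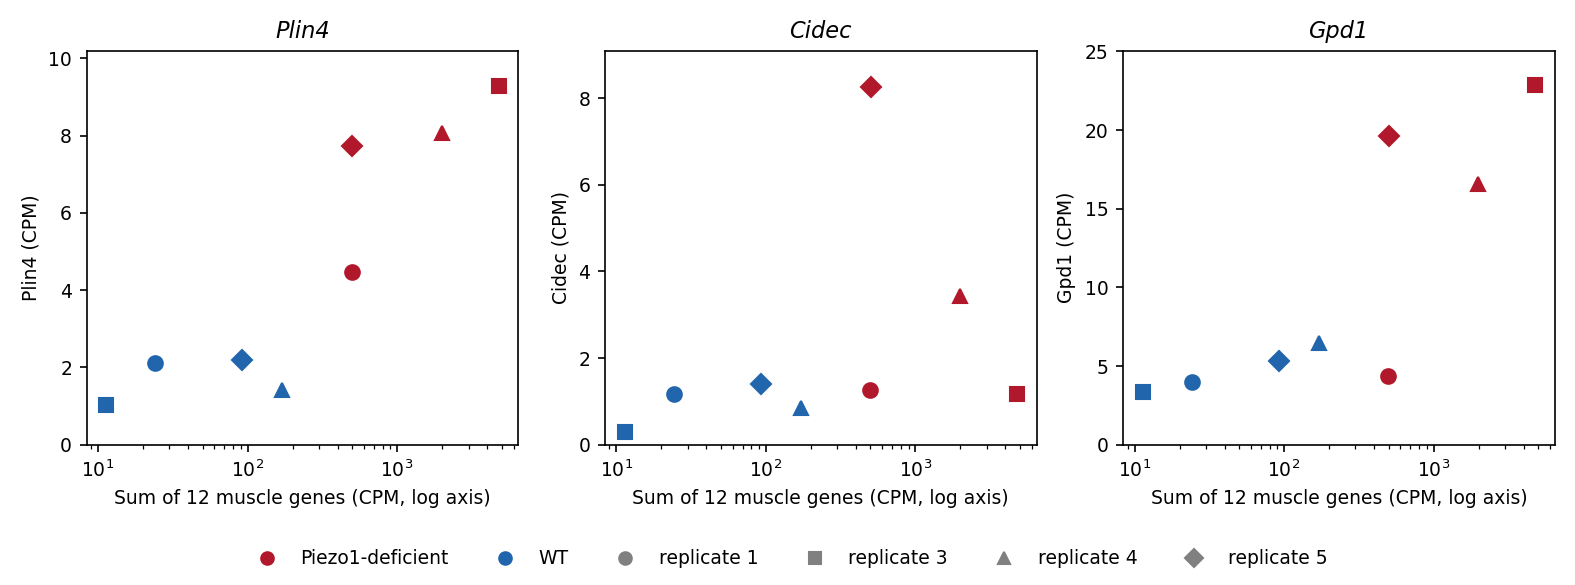
Level of *Plin4*, *Cidec* and *Gpd1* in CPM (y axes, linear) against the summed level of 12 skeletal muscle genes in CPM (x axis, logarithmic) in the 4 *Piezo1*-deficient samples (red) and the 4 WT samples (blue), with the replicate number as the symbol. *Plin4* and *Gpd1* are highest at the highest muscle sum, 4770 CPM, where *Cidec* is 1.18 CPM, and all 3 differ between the *Piezo1*-deficient replicates 1 and 5, whose muscle sums are 496 and 503 CPM.

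Beyond the 10 genes, 63 other genes of adipocyte transcription, lipid droplets, lipolysis, lipid synthesis, uptake, secretion, hormone response and thermogenic fat were followed. *Cidea*, *Retnlb*, *Ucp1* and *Elovl3* are not among the genes of the table, and 51 of the other 59 were tested. Of these, 4 rose (7.84%, against 2.04% of all genes tested) and 1 fell (1.96%, against 0.973%), 36 of 51 were positive, and the median log2 fold change was 0.10. All *Piezo1*-deficient libraries lay above all WT libraries for 9 of the 51 genes, and below them for 3, against 6.65% and 5.27% of all genes tested.

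Among 6 tested genes of droplets and caveolae, 2 rose. *Cav1*, the gene of caveolin, the coat protein of the membrane pits that are dense in fat cells and endothelium, had 60.9, 64.1, 69.7 and 53.7 CPM in *Piezo1*-deficient samples and 46.3, 46.8, 46.4 and 49.2 CPM in WT samples (log2 fold change 0.40, edgeR adjusted p = 0.0286). *Ptrf*, which encodes the caveolar protein cavin-1, had 126, 108, 130 and 118 CPM in *Piezo1*-deficient samples and 90.8, 93.2, 81.3 and 82.6 CPM in WT samples (log2 fold change 0.47, edgeR adjusted p = 0.0137). Neither pair of groups overlapped, and both calls were lost in some fits with 1 library left out, for *Cav1* in 6 of 8 (highest adjusted p 0.0935) and for *Ptrf* in 2 of 8, those lacking WT replicate 4 or 5 (highest adjusted p 0.0645). The other droplet genes of the list, *Plin2*, *Plin3*, *Bscl2* and *Fitm2*, were not called.

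In lipolysis, 1 of 5 genes rose: *Mgll*, the lipase of monoacylglycerol, had 74.9, 76.2, 75.6 and 79.5 CPM in *Piezo1*-deficient samples and 65.6, 66.6, 63.4 and 62.1 CPM in WT samples (log2 fold change 0.25, edgeR adjusted p = 0.0425). In fatty acid uptake, 1 of 5 rose: *Cd36*, a fatty acid receptor of fat cells, capillaries and macrophages, had 30.0, 36.4, 35.4 and 38.6 CPM in *Piezo1*-deficient samples and 25.0, 19.2, 26.6 and 26.9 CPM in WT samples (log2 fold change 0.52, edgeR adjusted p = 0.0405). In fatty acid synthesis, 1 of 7 fell: *Elovl6*, an elongase, had 12.6, 18.0, 13.2 and 12.9 CPM in *Piezo1*-deficient samples and 21.0, 21.0, 22.5 and 21.4 CPM in WT samples (log2 fold change −0.60, edgeR adjusted p = 0.0260). For each of these 3 genes the groups did not overlap. Their calls were also lost when some libraries were left out, in 7 of 8 fits for *Mgll* and *Cd36* and in 5 of 8 for *Elovl6*, with adjusted p-values up to 0.155, 0.0932 and 0.0904. The call of *Mgll* was also lost with no filter on low counts (adjusted p = 0.0603), with library sizes that leave out *Col1a1*, *Col1a2* and *Sparc* (0.0532) and with a replicate block (0.0597).

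The remaining 5 lists held no edgeR call, with 11 of their 28 tested genes at an unadjusted p under 0.05 and 2 called by DESeq2. Over all genes, 2822 of 15318 had an unadjusted edgeR p under 0.05, and DESeq2 called 592 rises and 358 falls among 15312. The 2 best expressed genes of adipogenic transcription (10 tested, median log2 fold change 0.22) were *Rxra*, the partner receptor of PPARγ, with a log2 fold change of 0.18, and *Srebf1*, a regulator of lipid synthesis, with 0.03. In triglyceride synthesis (6 tested, median −0.00) they were *Dgat1*, which makes triglyceride, with −0.05, and *Gpam*, which starts glycerolipid synthesis, with −0.28. Among secreted factors (4 tested, median −0.22) they were *Retnlg*, a resistin-like gene of neutrophils, with −0.40, and *Nampt*, with −0.24. Among receptors (5 tested, median 0.05), the adiponectin receptor gene *Adipor1* had 0.05 and the leptin receptor gene *Lepr* 0.00. For thermogenic fat (3 tested, median 0.61), *Dio2*, the deiodinase that activates thyroid hormone, had 0.38 and *Prdm16*, a regulator of brown fat identity, 0.61. The edgeR adjusted p of these 10 genes was between 0.123 and 0.993.

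A few genes, chosen after their values were seen, were highest in the same library as *Plin4* or in the same library as *Plin1* and *Cidec*. *Gpd1*, which makes glycerol phosphate in fat and muscle, had 4.40, 22.9, 16.6 and 19.6 CPM in *Piezo1*-deficient replicates 1, 3, 4 and 5, against 4.0, 3.35, 6.48 and 5.31 CPM in the WT replicates (log2 fold change 1.73, edgeR adjusted p = 0.0517). *Cox7a1*, a respiratory chain subunit of muscle and brown fat, had 1.94, 8.71, 4.76 and 1.65 CPM in *Piezo1*-deficient samples and 0.314, 0.437, 1.04 and 1.25 CPM in WT samples (log2 fold change 2.48, edgeR adjusted p = 0.0514). Like *Plin4* they were highest in *Piezo1*-deficient replicate 3, although *Gpd1* in replicate 1 lay inside the WT range, as was *Cox8b*, of the same tissues, with 8.93 CPM there against at most 0.389 CPM in WT samples. *Scd1*, the desaturase of fatty acid synthesis, had 108, 116, 153 and 274 CPM in *Piezo1*-deficient samples and 114, 73.6, 94.7 and 118 CPM in WT samples (log2 fold change 0.70, edgeR adjusted p = 0.197). *Thrsp*, a lipogenic gene of fat and liver, had 4.82, 2.88, 6.74 and 11.0 CPM in *Piezo1*-deficient samples and 3.37, 0.655, 2.20 and 1.72 CPM in WT samples (log2 fold change 1.67, edgeR adjusted p = 0.0834). These 2 peaked in *Piezo1*-deficient replicate 5, with *Plin1*, *Cidec* and *Cfd*, although *Thrsp* in replicate 1 was above all WT samples.

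Genes whose log2 CPM most resembled that of *Adipoq* and *Plin4* over the 8 libraries, after the mean of each genotype was taken out, were looked up among 12862 genes. For *Adipoq* these were *Ptdss2*, *Tipin*, *Hsd11b1*, *Hspa14* and *Aggf1*, with Pearson's r of 0.978 to 0.983, Spearman's rho of 0.952 to 0.976, and r of 0.949 to 0.972 without the 2 libraries farthest from the median. For *Plin4* they were *Car7*, *Taf7*, *Tnik*, *Camta1* and *Chac1*, with r of 0.939 to 0.954 and rho of 0.786 to 0.929, and r of 0.739 to 0.899 without the 2 farthest libraries. For *Cidec*, looked up after its values were seen, *Scd1* was among the 5 closest, with r of 0.976 and rho of 0.929, and r of 0.972 without the 2 farthest libraries. None of the 10 genes named for *Adipoq* and *Plin4* was called, and as the libraries share tissue content and depth, these values are descriptions of 8 libraries.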

How the data were processed

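RNA had been extracted with Trizol and made into Illumina TruSeq libraries. The authors deposited raw counts per gene for the 8 libraries in 1 table, and all 8 sample columns were used. The deposited log2 fold changes and p-values, raw and corrected, come from the authors' own comparison and were left aside. HISAT2 and GRCm38 are named in the submitters' processing notes, and mm9, TopHat, Cufflinks and Cuffdiff in the methods of the paper. The read counter, annotation and strand setting are not given in the sources used here, so reads shared by overlapping genes or paralogs could not be re-assigned. Gene positions and promoters are RefSeq on GRCm38, and exon lengths are GENCODE M1 on mm9, used only for levels per kb.

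Counts were tested with edgeR 4.0.16 (R 4.3.3, limma 3.58.1). filterByExpr kept 15318 genes, which needed a count of about 10 in 4 libraries. TMM factors ran from 0.888 to 1.07. The quasi-likelihood F test compared 4 *Piezo1*-deficient with 4 WT libraries, with Benjamini-Hochberg adjustment over all genes tested and calls at an adjusted p under 0.05. The SE is the absolute log2 fold change over the square root of F, and the biological coefficient of variation was 13.1%. CPM are counts per 1000000 of the TMM-scaled library size, errors of means are SD over 4 libraries, and levels of single genes were also set against each other by an exact permutation test, two-sided. Totals of 11963536 to 14536106 counts set the counting precision. No 2 libraries were duplicates: their counts differed beyond sampling noise in every pair within a genotype. The tests were checked on simulated counts of 15154 genes, where 81% of the genes changed 2-fold and 98% of those changed 4-fold were found. Of the 192 calls made there, 15 were false.

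The 10 genes and the lists were chosen with earlier results of these data known. Named beyond the 10 were called genes of the other lists, the 2 best expressed of each list with no call, the 5 genes most like *Adipoq* and *Plin4*, and markers of bone, muscle and vessels. *Gpd1*, *Cox7a1*, *Cox8b*, *Scd1* and *Thrsp* were named after their values were seen, as were *Gpihbp1*, *Cdh13*, *Hdgfrp2* and the droplet genes without a call. Alternatives were DESeq2 size factors, no filter, a replicate block, a minimum mean of 5 CPM, DESeq2 1.42.0 (Wald test), leaving out each library, and library sizes that leave out *Col1a1*, *Col1a2* and *Sparc*. The fit without *Piezo1*-deficient replicates 3 and 4 was added after seeing the data.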

Additional observations from a re-analysis of the deposited data

Results flagged for a closer look

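In 54 groups of 4 samples, the highest or lowest sample was compared with the other 3, and a gap this large arises by chance in about 1 of 20 groups. *Lpl* was 97.9 CPM in *Piezo1*-deficient replicate 1, below the other *Piezo1*-deficient libraries, which all had 133 CPM. *Elovl6* was 18.0 CPM in *Piezo1*-deficient replicate 3, above the other 3 (12.6 to 13.2 CPM). *Cav1* was 49.2 CPM in WT replicate 5, above the other WT libraries (46.3 to 46.8 CPM). The erythroid marker sum was 4444 CPM in WT replicate 4, above the other WT libraries (3450 to 3563 CPM).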

How the results depend on the processing

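*Plin4* was called in every alternative that tested it, except without both *Piezo1*-deficient replicates 3 and 4 (log2 fold change 1.86, adjusted p = 0.0563, against at most 0.0243 in the others), and was not tested with the filter at 5 CPM. The 10 genes gave 0 rises with that filter (5 genes tested), 3 with the Wald test of DESeq2 (*Plin4*, *Cidec* and *Fabp4*) and 1 to 2 with 1 library left out. The count of falls was 0 under all alternatives. Without both *Piezo1*-deficient replicates 3 and 4 the 1 call was *Fabp4* (adjusted p = 0.0371). With 1 library left out, the log2 fold change of *Lpl* ran from −0.15 to 0.073, positive without *Piezo1*-deficient replicate 1 (0.068), WT replicate 4 (0.040) or WT replicate 5 (0.073), and it was uncalled throughout. The 4 rises of the other lists became 7 with no filter, 8 with DESeq2, 0 without both *Piezo1*-deficient replicates 3 and 4, and 0 to 8 with 1 library left out, and the 1 fall became 2 with DESeq2 and 0 to 1 with 1 library left out. Over all genes, 313 rises and 149 falls became 592 and 358 with DESeq2, 63 and 46 without both replicates, and 71 to 415 rises and 49 to 271 falls with 1 library left out. The causes were not tested.

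Whether the replicate numbers pair the samples or mark a batch is not stated in the labels. Same-numbered libraries had correlations of 0.333, −0.218, 0.167 and −0.00949 for replicates 1, 3, 4 and 5 of their deviations from the genotype means. These values, of mixed sign and each from a single pair of libraries, cannot settle it. With a replicate block, 3 of the 10 genes rose (*Plin4*, *Cidec* and *Fabp4*), 8 of the other lists rose, and 506 rises and 320 falls were found over all genes. Counts of 0 to 126 behind the droplet genes, *Lep* and *Retn* limit their precision.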
